A study of Mus musculus with 10 samples.

Results

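The mRNA of early 4-cell mouse embryos was compared between embryos in which Ago2 had been knocked down (Ago2 kd) and control embryos. The comparison used the 2 libraries labelled 4-cell embryo Ago2 kd and the 2 labelled 4-cell embryo control, of 10 libraries in the series, and covered the 5943 of 21437 listed genes that reached 1 FPKM (the fragments that mapped to a gene, scaled by its exon length and by the library's total) in at least 2 of these 4 libraries. Of the 5943 genes, 4442 were above 0.1 FPKM in each of the 4 libraries and are called measured throughout below. The labels give strain ICR for all samples, genotype wild type for the controls and Ago2-kd for the others, and females of 7 weeks that received 6.5 IU PMSG and, 47 h later, 5 IU hCG before mating; the protocol text names F1 parents. Per the methods, embryos of this stage were collected at 55 h after hCG, and the knockdown was made by injecting an siRNA against Ago2 together with AGO2 antibodies into zygotes. The methods name a scrambled siRNA as negative control, but whether the sequenced controls were injected with it is not given, so injection and knockdown cannot be told apart. The labels number the libraries of a group 1 and 2 and do not say that they came from separate pools of embryos, so the p-values may measure technical spread only. Ago2 was not analysed here, and the other Argonaute genes Ago1, Ago3 and Ago4 were at or below 1.39 FPKM in each of the 4 libraries.

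AGO2 is the Argonaute protein that can cut an RNA paired with its small guide RNA, and with microRNAs it also represses mRNAs without cutting them. In the mouse, the egg's stored mRNAs are cleared while the embryo's own genome is switched on, with a minor wave in the zygote and a major one at the 2-cell stage. At the 4-cell stage transcription from the new genome dominates, and the factors that later separate trophectoderm from inner cell mass begin to be made.

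Among the measured genes those of chromatin remodelling and, to a smaller degree, of ribosome biogenesis lay more often below the controls, whereas genes of the spindle, of Mediator and of mitochondrial translation lay more often above them. For mitochondrial ribosomal proteins the first knockdown library was level with control replicate 1 in the median, at 0.29 and 0.26 log2 units above the control mean. By limma on log2(FPKM + 1), with Benjamini-Hochberg adjustment over all genes tested, 128 genes (2.15%) were higher and 277 (4.66%) lower after the knockdown. At an unadjusted p below 0.05, 579 (9.74%) were higher and 671 (11.3%) lower. Both knockdown libraries lay above both controls for 1409 genes (23.7%) and below both for 1294 (21.8%). Among the measured genes these numbers were 1163 (26.2%) and 906 (20.4%). The counts given for each list below are to be read beside these shares. The median log2 difference over all genes tested was 0.01. Of the called genes, 42 of the higher and 126 of the lower were measured in all 4 libraries. Because a filter on level can be passed through 1 group alone, 331 genes entered with both knockdown libraries below 1 FPKM and 282 with both controls below 1 FPKM, and these had to differ. Any tested gene described below with both libraries of 1 group below 1 FPKM is of this kind, whether listed at 0 or measured. Its direction was fixed in advance. Of the 277 genes called lower, 113 were at or below 0.1 FPKM in both knockdown libraries, out of 160 such genes tested, all of which entered through the controls. In bulk embryos, fewer transcribing cells and less mRNA per cell cannot be told apart. When limma was fitted to these 4 libraries alone, 0 genes passed the adjustment (lowest adjusted p = 0.142) while 334 higher and 432 lower genes had an unadjusted p below 0.05. With array quality weights, 35 higher and 110 lower genes passed, 2 and 28 of them measured in all 4. The weights were equal within each group, at 0.5 for 4-cell controls, 0.339 for 4-cell knockdown libraries and 3.5 for MII oocytes. The main fit shares its estimate of spread with quieter groups. The SD between replicates was 1.05 for 4-cell controls and 1.36 for 4-cell knockdown libraries, against 0.68 in oocytes. The main p-values may thus be too small for the 4-cell comparison. Weights equal within groups leave the differences unchanged and alter their standard errors and p-values. They make noisier groups count less, and do not set a poor library below its partner. Where a measured gene described below also passed with these weights, it is said to be called under weights.

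The largest falls among the measured genes came from pathways with little in common. Slc16a6, a member of the monocarboxylate transporter family (chromosome 11, 109450855 to 109473598 of GRCm38), was at 258 and 125.6 FPKM in the controls and at 1.16 and 1.64 FPKM in the knockdown libraries, a log2 difference of -6.25 (SE 0.76, adjusted p = 0.00359). Nsun2, which encodes an RNA cytosine methyltransferase (chromosome 13, 69533746 to 69635780), was at 221 and 205 FPKM against 5.19 and 1.19 FPKM (-5.86, SE 0.57, adjusted p = 0.00126). Atp6ap1, an accessory subunit of the proton-pumping vacuolar ATPase (chromosome X, 74297097 to 74304721), was at 61.2 and 66.1 FPKM against 0.22 FPKM in each knockdown library (-5.73, SE 0.33, adjusted p = 0.000193). In all 3 genes the lowest control lay far above the highest Ago2 kd value, and Nsun2 and Atp6ap1 were called under weights. Dtl, which encodes a substrate receptor of the CUL4 ubiquitin ligase active in S phase, fell from 109.9 and 90.8 FPKM to 1.84 and 1.32 FPKM (-5.30, SE 0.44, adjusted p = 0.000592). Psmd2, a base subunit of the proteasome's regulatory particle, fell from 36.2 and 47.5 FPKM to 0.42 and 0.19 FPKM (-5.03, SE 0.34, adjusted p = 0.000292). Tomm22, a receptor of the outer mitochondrial membrane import pore, fell from 56.7 and 86.4 FPKM to 1.17 and 1.47 FPKM (-4.94, SE 0.41, adjusted p = 0.000603). These 3 genes were also called under weights, as was the aminopeptidase gene Rnpep, at 104.8 and 91.3 FPKM against 0.91 and 0.39 FPKM (adjusted p = 0.000813). The controls of the autophagy kinase gene Ulk1 stood far apart, at 20.3 and 211 FPKM, and both knockdown libraries were below them, at 1.46 and 1.52 FPKM (adjusted p = 0.037). The largest fall of all measured genes was that of the processed pseudogene Gm11517, from 497 and 308 FPKM to 0.20 FPKM in each knockdown library (adjusted p = 0.0116). Atp6ap1, Psmd2, Rnpep and Gm11517 were below 1 FPKM in both knockdown libraries. They passed the filter through the controls alone and had to come out lower.

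Rises among the measured genes were smaller. Apart from ribosomal RNA rows, described further below, the largest was that of Gsto1, a glutathione transferase of the omega class, at 0.27 and 0.72 FPKM in the controls and 19.3 and 10.7 FPKM in the knockdown libraries (log2 difference 3.38, SE 0.63, adjusted p = 0.0226). Ddt, a paralogue of the cytokine gene Mif, was at 2.68 and 2.82 FPKM against 20.8 and 23.9 FPKM (2.63, SE 0.51, adjusted p = 0.0261). Both genes had low control values and 2 Ago2 kd values above them. For Gsto1 the filter fixed this in advance, since both its controls were below 1 FPKM. Ccnd1, the G1 cyclin D1, rose from 4.58 and 6.83 FPKM to 23.3 and 23.7 FPKM (1.89, SE 0.42, adjusted p = 0.0414). Atic, which completes purine ring synthesis, rose from 0.83 and 1.14 FPKM to 7.38 and 6.72 FPKM (2.02, SE 0.33, adjusted p = 0.0140). None of these 4 rises was called under weights, and the 2 measured rises that were are the ribosomal RNA rows Rn18s-rs5 and AY036118.

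**Figure D1:**
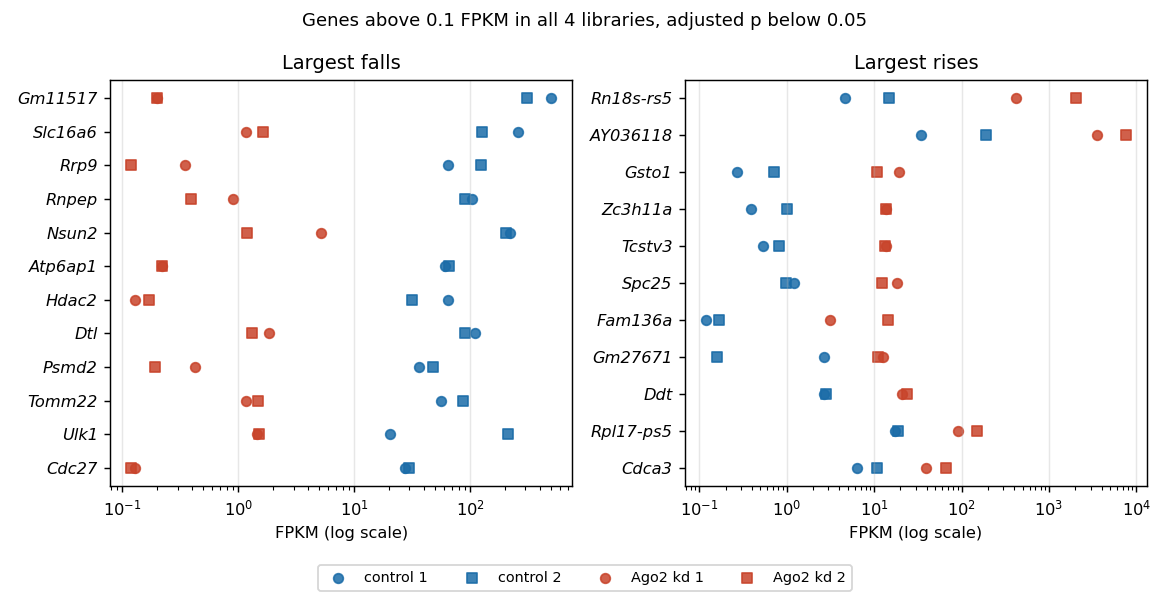
FPKM on a log axis of the 12 largest falls (left) and 11 of the 12 largest rises (right) among genes above 0.1 FPKM in each of the 4 libraries and with adjusted p below 0.05; circles are replicate 1, squares replicate 2, blue control and red Ago2 kd embryos. In every row both libraries of 1 group lie beyond both of the other, from Gm11517 at 497 and 308 FPKM against 0.20 FPKM to Cdca3 at 6.41 and 10.8 FPKM against 39.4 and 66.4 FPKM. Where both libraries of 1 group are below 1 FPKM, the filter fixed this in advance.

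Several factors of pluripotency and of the first lineage decision fell to or near 0. Of 30 tested members, 14 lay below both controls and 3 above, 6 fell after adjustment and 0 rose, with 9 lower and 1 higher at an unadjusted p below 0.05, and the median log2 difference was -0.79 against 0.01 for all genes. All 6 that fell were below 1 FPKM in both knockdown libraries, so they passed the filter through the controls and had to differ, and by limma 0 of the 22 measured members passed the adjustment (3 lower and 1 higher unadjusted). Klf2, a Krüppel-like factor of the naive pluripotency network (chromosome 8, 72319033 to 72321656), was at 86.6 and 63.9 FPKM in the controls and was listed at 0 in both knockdown libraries (adjusted p = 0.000193). Sall4, a zinc-finger factor needed in early embryos (chromosome 2, 168748332 to 168767943), was at 105.5 and 110.4 FPKM against 0.09 FPKM in each knockdown library (adjusted p = 0.00342). Tead4, the partner of YAP in switching on trophectoderm genes (chromosome 6, 128224288 to 128300823), was at 16.5 and 40.1 FPKM in the controls and was listed at 0 in both knockdown libraries (adjusted p = 0.000808). The same pattern held for 2 Hippo pathway genes and for a growth factor, chosen here after their values were seen. Amotl2, an angiomotin that holds YAP in the cytoplasm, was at 46.7 and 13.6 FPKM and then listed at 0 in both knockdown libraries (adjusted p = 0.0045). Lats2, a kinase of YAP, was at 14.4 and 10.8 FPKM against 0.94 FPKM in the first knockdown library and a listed 0 in the second (adjusted p = 0.00253). Fgf4, the growth factor by which inner cell mass cells signal to their neighbours, was at 28.9 and 7.15 FPKM and then listed at 0 in both (adjusted p = 0.00647). All 6 genes were at or below 0.1 FPKM in at least 1 knockdown library. A listed 0 in this table can be a failed estimate, since the housekeeping gene Gapdh was at or below 0.04 FPKM in all 4 libraries, and the fitted difference of such genes is no measure of size.

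Other pluripotency genes did not pass the test. Among the 22 measured members 7 (31.8%) lay below both controls and 3 (13.6%) above, against 20.4% and 26.2% of all measured genes. Their median was -0.36, and the medians of the knockdown libraries against the control mean were -0.07 and -0.64. Pou5f1, the gene of OCT4 (chromosome 17, 35506018 to 35510772), was at 23.1 and 18.5 FPKM in the controls and 7.39 and 6.01 FPKM in the knockdown libraries, groups that did not overlap, with a log2 difference of -1.5 that missed the threshold (SE 0.39, adjusted p = 0.0722). Nanog was at 6.43 and 5.2 FPKM against 1.92 and 16.6 FPKM, so that the knockdown libraries stood on opposite sides of the controls (adjusted p = 0.969). Klf17 was at 293 and 506 FPKM against 399 and 319.9 FPKM (adjusted p = 0.967), and Klf4 at 18.4 and 16.5 FPKM against 17.9 and 26.5 FPKM (adjusted p = 0.867). Dppa3, the maternal factor Stella, was at 115 and 76.6 FPKM against 132 and 292 FPKM (adjusted p = 0.251). Nanog, Klf17, Klf4 and Dppa3 were chosen after their values were seen, and their groups overlapped except for Dppa3.

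**Figure D2:**
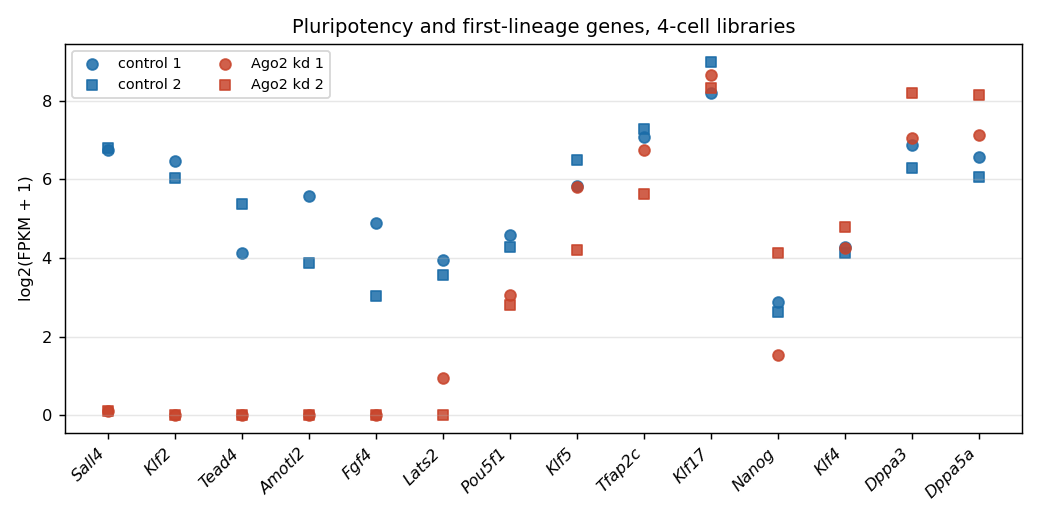
log2(FPKM + 1) of 14 pluripotency and first-lineage genes in the 4 libraries; circles are replicate 1, squares replicate 2, blue control and red Ago2 kd. Both red points of Sall4, Klf2, Tead4, Amotl2 and Fgf4 lie at or next to 0, Pou5f1 is lower in both knockdown libraries (7.39 and 6.01 FPKM against 23.1 and 18.5), and Klf17, Nanog and Klf4 show overlapping groups.

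Genes of chromatin remodelling were the list with the lowest median among those with 20 or more members measured in all 4 libraries. Of its 20 measured members, 10 (50.0%) lay below both controls and 2 above, and the median difference from the control mean was -1.13 in the first and -0.79 in the second knockdown library. Over all 27 tested members 14 (51.9%) lay below and 3 fell after adjustment, and their median was -1.22, or -0.74 without the first knockdown library. Chd7, an ATP-dependent CHD remodeller, fell from 23.4 and 37.4 FPKM to 3.38 and 5.98 FPKM (log2 difference -2.47, SE 0.54, adjusted p = 0.0403), while Ino80d and Dmap1, the other 2 that fell, were below 0.1 FPKM in both knockdown libraries. Smarcc1, a core subunit of the BAF complex, was at 29.8 and 31.7 FPKM against 7.92 and 6.12 FPKM (-1.99, SE 0.50, adjusted p = 0.0636). Chd8 was at 3.94 and 3.52 FPKM against 1.19 and 0.72 FPKM (-1.28, SE 0.32, adjusted p = 0.0672). In both genes the pairs were tight and did not overlap, but the test did not pass. Mta2 of the NuRD complex was at 114 and 218 FPKM in the controls, but its knockdown libraries stood far apart, at 1.10 and 37.4 FPKM (adjusted p = 0.13). Smarcc1, Chd8 and Mta2 were chosen after their values were seen. Centring every gene on others of like exonic length and GC content, an alternative added after seeing the data, gave a list median of -0.96.

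Other chromatin genes fell singly. Hdac2, a histone deacetylase (chromosome 10, 36974544 to 37001889), fell from 64.0 and 31.3 FPKM to 0.13 and 0.17 FPKM (-5.32, SE 0.57, adjusted p = 0.00209). Chaf1b, a subunit of the chaperone that loads histones behind the replication fork (chromosome 16, 93883901 to 93906115), fell from 30.96 and 31.9 FPKM to 0.83 and 0.62 FPKM (-4.23, SE 0.31, adjusted p = 0.000423) and was called under weights. Hdac2 and Chaf1b were below 1 FPKM in both knockdown libraries, so they passed the filter through the controls alone and had to come out lower. Trim28, the corepressor that KRAB zinc-finger proteins recruit, fell from 35.8 and 63.6 FPKM to 7.22 and 2.04 FPKM (-3.29, SE 0.61, adjusted p = 0.0232). H2afx, the histone variant phosphorylated at DNA breaks, fell from 136 and 196 FPKM to 9.09 and 18.5 FPKM (-3.55, SE 0.47, adjusted p = 0.00518). Of 12 tested histone genes, 7 lay above both controls and 4 below, H2afx among them, and the median difference was 0.86. H3f3b, 1 of the genes of histone H3.3, was at 261 and 400.3 FPKM against 627 and 740.4 FPKM (adjusted p = 0.132), whereas H3f3a, the other H3.3 gene, was at 18.4 and 15.6 FPKM and then listed at 0 in both knockdown libraries (adjusted p = 0.0239). H3f3b was chosen after its values were seen. The labels do not give how the libraries were primed, and most replication-dependent histone mRNAs lack a poly(A) tail. For writers and erasers of histone methylation and acetylation, 15 of 50 tested members lay below both controls and 5 above, with a median of -0.33 that was 0.03 after centring on length and GC content.

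Splicing factors were called about as often as all genes. Of 98 tested members, 22 (22.4%) lay below both controls and 19 above, 5 (5.10%) fell and 2 rose after adjustment, and the median of -0.14 was 0.33 without the first knockdown library and -0.40 without the second. Hnrnpab, which binds nuclear pre-mRNA (chromosome 11, 51600100 to 51606847), fell from 536 and 592 FPKM to 50.9 and 50.3 FPKM (-3.45, SE 0.32, adjusted p = 0.00102) and was called under weights. Srsf2, a serine- and arginine-rich splicing factor, fell from 397 and 471 FPKM to 44.4 and 53.5 FPKM (-3.12, SE 0.63, adjusted p = 0.0314). Sf1, which recognises the branch point, fell from 27.6 and 32.3 FPKM to 0.60 and 1.23 FPKM (-4.03, SE 0.64, adjusted p = 0.0116). Ybx1, a Y-box protein that packages mRNA and was named here after its values were seen, fell from 775 and 743 FPKM to 92.9 and 138 FPKM (-2.74, SE 0.34, adjusted p = 0.00405) and was called under weights. In each of these 4 genes the groups lay far apart. Hnrnpl moved the other way, from 1.35 and 0.95 FPKM to 6.22 and 3.96 FPKM (1.48, SE 0.33, adjusted p = 0.0436). Alyref, an adaptor of mRNA export, was at 31.3 and 65.2 FPKM and then listed at 0 in both knockdown libraries (adjusted p = 0.000542).

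Genes that build ribosomes lay below the controls more often than above, with a median that rested largely on the first knockdown library. Of 89 tested ribosome biogenesis genes, 34 (38.2%) lay below both controls and 14 (15.7%) above, against 21.8% and 23.7% of all genes tested. After adjustment 5 (5.62%) fell and 2 (2.25%) rose, against 4.66% and 2.15%. The median was -0.69, or -0.18 without the first knockdown library and -0.19 among members of at least 1 FPKM in all 4 libraries. Among the 71 measured members the median was -0.53. Of these, 24 (33.8%) lay below and 12 (16.9%) above, against 20.4% and 26.2% of all measured genes. Rrp9, which binds the U3 small nucleolar RNA, fell from 64.1 and 124.6 FPKM to 0.35 and 0.12 FPKM (-6.20, SE 1.40, adjusted p = 0.0452). Ddx51, a helicase of the large subunit, fell from 6.23 and 5.21 FPKM to 0.91 and 0.81 FPKM (-1.85, SE 0.34, adjusted p = 0.0226). Rrp9 and Ddx51 were below 1 FPKM in both knockdown libraries, so the filter fixed their direction in advance. Pes1 and Nol9, which act in large-subunit processing, were at 28.7 and 24.4 FPKM and at 83.6 and 149 FPKM in the controls, and at a listed 0 and 0.20 FPKM and a listed 0 in both knockdown libraries (adjusted p = 0.000254 and 0.000193). Of 43 translation initiation factors, 14 lay below both controls and 8 above, with a median of -0.61 that was -0.01 without the first knockdown library and 0.08 among those of at least 1 FPKM in all 4 libraries. Among the 29 measured initiation factors 9 lay below and 7 above, with a median of -0.13. The 1 that fell was Eif2b5, a subunit of the exchange factor of eIF2, at 62.8 and 75.7 FPKM and then listed at 0 in both knockdown libraries (adjusted p = 0.000193). Eif4g1, the scaffold of the cap-binding complex and a gene the study names, was at 75.8 and 65.0 FPKM against 3.32 and 9.19 FPKM, a log2 difference of -3.42 that did not pass (SE 1.34, adjusted p = 0.201). Its MII oocyte libraries, which share in the estimate of spread, stood at 20.5 and 0.14 FPKM. Of the cytoplasmic ribosomal proteins, 63 of 82 were tested, with 23 above both controls, 11 below and a median of 0.22 that was 0.82 without the first knockdown library and -0.08 without the second. Most of these genes have processed pseudogenes of near-identical sequence, so their values are uncertain; among the 1163 measured genes above both controls 273 were processed pseudogenes, against 124 of the 906 below.

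Genes of the spindle and of the anaphase-promoting complex (APC/C), the ubiquitin ligase that ends mitosis, lay above the controls more often than below. Of the 34 measured kinesin, centromere and spindle genes, 19 (55.9%) lay above both controls and 2 (5.88%) below, against 26.2% and 20.4% of all measured genes. The knockdown libraries stood 0.74 and 0.86 above the control mean in the median. Over all 46 tested members, 20 (43.5%) lay above and 5 (10.9%) below, against 23.7% and 21.8% of all genes tested. Of the 46, 2 (4.35%) rose and 1 (2.17%) fell, against 2.15% and 4.66%, and their median of 0.59 was 0.22 without control replicate 2. Spc25, a subunit of the NDC80 kinetochore complex (chromosome 2, 69193895 to 69206194), rose from 1.22 and 0.97 FPKM to 18.1 and 12.2 FPKM (2.92, SE 0.60, adjusted p = 0.0329). Cdca3, a trigger of mitotic entry (chromosome 6, 124829547 to 124833701), rose from 6.41 and 10.8 FPKM to 39.4 and 66.4 FPKM (2.48, SE 0.42, adjusted p = 0.0153). Cdca3 was at 124.2 and 210.5 FPKM in MII oocytes, so its level in Ago2 kd embryos was between those of the egg and of the 4-cell controls. Kif20a, a kinesin of cytokinesis, was the exception, at 5.50 and 8.63 FPKM and then listed at 0 in both knockdown libraries (adjusted p = 0.0322). For APC/C and the spindle checkpoint, 8 of 20 tested members lay above both controls and 3 below, with a median of 0.80 that was 1.22 without the first knockdown library. Both members of this list that fell are subunits of the APC/C arm that binds the coactivators. Cdc27 was at 27.2 and 29.9 FPKM against 0.13 and 0.12 FPKM (-4.72, SE 0.54, adjusted p = 0.00282), and Anapc7 at 46.1 and 30.3 FPKM against 9.26 and 7.12 FPKM (-2.07, SE 0.42, adjusted p = 0.0322). Cdc27 passed the filter through the controls alone and had to come out lower. Anapc10 and Anapc16, chosen after their values were seen, were at 4.19 and 7.04 FPKM against 13.9 and 15.1 FPKM (adjusted p = 0.112) and at 37.0 and 30.7 FPKM against 67.1 and 114 FPKM (adjusted p = 0.0724).

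Mediator, the complex that links transcription factors to RNA polymerase II, leaned one way. All 22 tested members were measured, and 10 (45.5%) lay above both controls and 0 below, against 26.2% and 20.4% of all measured genes. The 2 knockdown libraries were alike, with medians 0.62 and 0.76 above the control mean. The median difference was 0.49, or 0.76 without the first knockdown library. By limma, 0 members passed the adjustment while 3 had an unadjusted p below 0.05. Med21 was at 24.6 and 29.1 FPKM against 66.9 and 79.2 FPKM (log2 difference 1.41, SE 0.45, adjusted p = 0.124), Med31 at 1.18 and 3.84 FPKM against 7.77 and 14.8 FPKM (1.86, SE 0.60, adjusted p = 0.13), and Med11 at 3.80 and 5.36 FPKM against 11.96 and 11.3 FPKM (1.19, SE 0.44, adjusted p = 0.179). Among RNA polymerase II subunits and general factors, for comparison, the counts were 11 of 48 above both controls, 10 below and a median of -0.17, or 0.51 without the first knockdown library. Within that list Cdk9, the kinase that releases paused polymerase, fell from 45.2 and 82.6 FPKM to 13.3 and 5.98 FPKM (-2.64, SE 0.57, adjusted p = 0.0370).

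**Figure D3:**
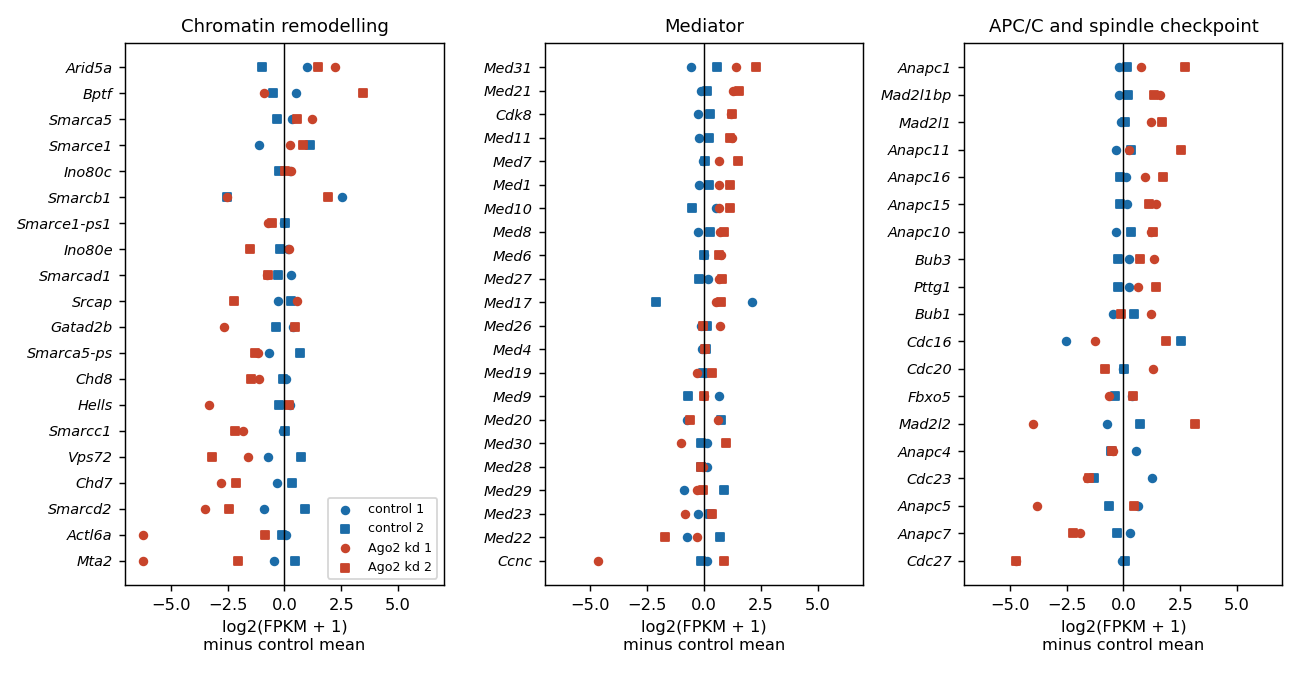
log2(FPKM + 1) minus the control mean for each measured member of chromatin remodelling (20 genes), Mediator (22) and APC/C with the spindle checkpoint (19), in order of the difference; circles are replicate 1, squares replicate 2, blue control and red Ago2 kd. Red points lie left of the blue ones for 10 remodelling genes, right of them for 10 Mediator genes and 8 APC/C and checkpoint genes, while Cdc27 and Anapc7 stand apart at -4.72 and -2.07.

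Nuclear genes for mitochondrial proteins lay more often above than below the controls, chiefly in the second knockdown library. Of 61 tested mitochondrial ribosomal proteins, 23 (37.7%) lay above both controls and 2 (3.28%) below, against 23.7% and 21.8% of all genes tested. The median of the 50 measured members was 0.29 above the control mean in the first knockdown library and 1.12 in the second. Control replicates 1 and 2 stood at 0.26 and -0.26, so the first knockdown library was level with control replicate 1. The median over all tested members was 0.64, or 0.23 without the second knockdown library, 1.13 without the first and 0.31 without control replicate 2. Subunits of the respiratory chain and ATP synthase gave 20 of 59 above (33.9%) and 4 below (6.78%). Medians over the measured members were 0.07 and 1.5 in the knockdown libraries, and 0.15 and -0.15 in control replicates 1 and 2. The median of all tested members, 0.69, was -0.04 without the second knockdown library and 1.55 without the first. By limma, 0 passed the adjustment and 9 were higher at an unadjusted p below 0.05. Ndufb11, a complex I subunit encoded on the X chromosome, was at 12.2 and 17.9 FPKM against 43.4 and 64.4 FPKM (1.77, SE 0.62, adjusted p = 0.155), and Cox6a1 at 29.8 and 34.9 FPKM against 78.8 and 162 FPKM (1.78, SE 0.55, adjusted p = 0.118). The control libraries differed from each other in mitochondrially encoded RNA, which took 10.8% and 5.22% of their FPKM and 11.1% and 13% in the knockdown libraries. Of 41 tested import receptors and chaperones 17 lay above both controls and 5 below. Among the 35 measured ones 16 (45.7%) lay above and 2 (5.71%) below, against 26.2% and 20.4% of all measured genes. Their medians were 0.57 and 0.66 in the knockdown libraries and 0.2 and -0.2 in control replicates 1 and 2. Of these, 1 rose and 1 fell, with Mtx1 rising from 2.62 and 4.08 FPKM to 13 and 22.3 FPKM (2.07, SE 0.42, adjusted p = 0.0316) and Tomm22 among the largest falls. Mrpl27, a protein of the large mitochondrial subunit, was listed at 0 in both controls and at 39.3 and 50.3 FPKM in the knockdown libraries (adjusted p = 0.000193), and it was also listed at 0 in all 6 other libraries of the series. Redox genes gave 7 of 21 above (33.3%) and 3 below (14.3%), against 23.7% and 21.8% of all genes tested. Their median of 0.57 was 0.05 without control replicate 2, with Prdx1 at 38.1 and 26.4 FPKM against 115 and 90.0 FPKM (adjusted p = 0.196).

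**Figure D4:**
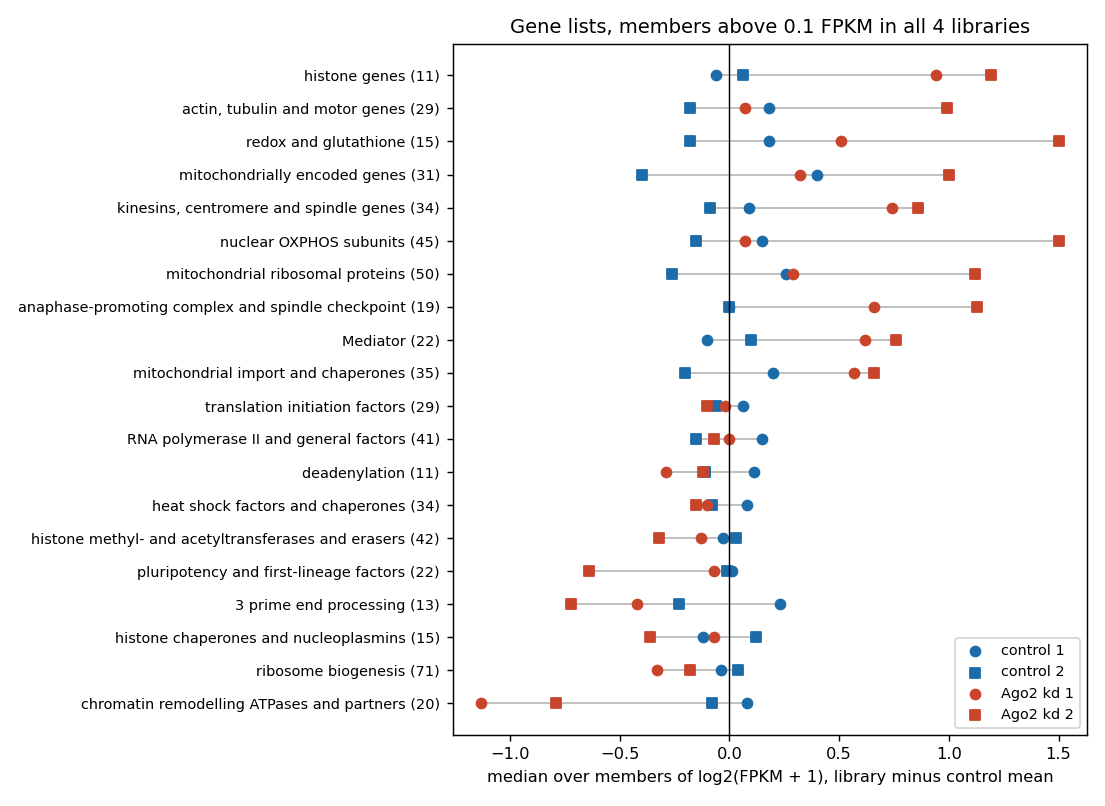
Median over the measured members of each gene list of log2(FPKM + 1) minus the control mean, 1 point per library, for the 10 lowest and 10 highest of the lists with 10 or more measured members (number of members in brackets); circles are replicate 1, squares replicate 2, blue control and red Ago2 kd. Chromatin remodelling lies at -1.13 and -0.79, Mediator at 0.62 and 0.76 and spindle genes at 0.74 and 0.86 in the knockdown libraries, whereas respiratory chain subunits differ between them, at 0.07 and 1.5.

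Among genes of the machinery that removes mRNA, 1 of 15 deadenylation genes fell, 1 of 17 decapping and P-body genes rose and 1 of 12 exosome genes fell, against 6.81% called in either direction over all genes tested. Of the 15 tested deadenylation genes, 3 lay above both controls and 2 below, and Cnot11, a subunit of the CCR4-NOT deadenylase, fell from 29.3 and 21.1 FPKM to 3.01 and 5.64 FPKM (-2.32, SE 0.44, adjusted p = 0.0243). Decapping and P-body genes gave 5 of 17 above and 4 below. Lsm5, of the Sm-like rings that bind U6 small nuclear RNA, rose from 1.18 FPKM and a listed 0 to 5.34 and 4.07 FPKM (adjusted p = 0.0261). Dis3, the catalytic subunit of the nuclear exosome, was at 51.7 and 34.5 FPKM and then listed at 0 in both knockdown libraries (adjusted p = 0.000193), while 9 of the 12 tested exosome genes overlapped between the groups. Of 14 Argonaute and microRNA genes in the table, 3 (21.4%) passed the filter, against 27.7% of all listed genes. Dcp1a, a decapping factor the study names, was listed at 0 in all 4 libraries.

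Genes specific to the oocyte and egg passed the filter about as often as all genes. Of the 66 listed, 18 (27.3%) were tested, against 27.7% of all listed genes, and 7 lay above both controls and 4 below, with a median of 0.26 that was 0.88 without control replicate 1 and -0.37 without control replicate 2. After adjustment 1 (5.56%) rose and 1 (5.56%) fell, against 2.15% and 4.66% of all genes tested. Npm2, the egg chromatin chaperone that remodels sperm chromatin, rose from 12.4 and 8.41 FPKM to 27.5 and 29.5 FPKM (1.39, SE 0.27, adjusted p = 0.0273), against 685 and 843 FPKM in oocytes. Omt2b moved the other way, from 12.6 and 5.46 FPKM to 0.03 and 1.20 FPKM (-2.64, SE 0.58, adjusted p = 0.0405). Of 10 egg markers 5 were tested, of which 4 lay above both controls and 0 below, against 23.7% and 21.8% of all genes tested. The summed level of the 10 was 49.5 and 38.1 FPKM in controls and 101 and 81.6 FPKM in Ago2 kd embryos. Hsf1, the heat shock factor stored in eggs, was listed at 0 in both controls and at 9.80 and 5.75 FPKM in the knockdown embryos (adjusted p = 0.00703). It passed the filter through the knockdown libraries alone and had to come out higher. Spin1, another maternal mRNA that the study names, lay above both controls but did not pass the adjustment, at a listed 0 and 17.2 FPKM against 43.6 and 24.5 FPKM (adjusted p = 0.229). Npm2, Hsf1 and Spin1 are the 3 of the 8 maternal mRNAs the study names that were tested. Zar1 and Zfp277 were listed at 0 in all 4 libraries, Brip1 was listed at 0 in 3 libraries and at 0.37 FPKM in the second knockdown library, and Ooep and Nlrp5 were at or below 0.72 FPKM throughout. Of the genes the study names as activated in the embryo, Tead4 fell, Pou5f1 and Eif4g1 missed the threshold as described, Yap1 did not exceed 0.32 FPKM in any of the 4 libraries, and Yy1 was at 35.7 and 69.1 FPKM against 16.5 and 26.8 FPKM (adjusted p = 0.237). The study drew Spin1, Brip1, Zfp277, Pou5f1, Eif4g1, Yap1 and Yy1 from its own comparisons of these samples, so they are not independent evidence of a direction. Yap1 and Tead4 were also known to the study from earlier reports. It reports Tead4 too as lower after the knockdown, so the fall of Tead4 here is not independent evidence either.

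Transcripts of the 2-cell burst, which normally fade as embryos leave that stage, lay above the controls about as often as all genes. Of 24 tested genes, 7 (29.2%) lay above both controls and 1 below, with a median of 0.43 that was 0.26 without the first knockdown library. Of the 19 measured members 5 (26.3%) lay above, against 26.2% of all measured genes, with a median of 0.16. Of 8 burst markers 7 were listed, and their summed level was 72.2 and 147 FPKM in controls and 180 and 82.6 FPKM in Ago2 kd embryos, which overlapped. Tcstv3 (chromosome 13, 120316878 to 120318178), a member of a 2-cell-specific family, rose from 0.54 and 0.81 FPKM to 13.7 and 13.5 FPKM (3.12, SE 0.38, adjusted p = 0.00359). It was at 273 and 306 FPKM in 2-cell controls, so that the 4-cell level was far lower in both groups. Both 4-cell controls of Tcstv3 were below 1 FPKM, so it passed the filter through the knockdown libraries alone and had to come out higher. Tcstv3 has near-identical neighbours whose reads may be shared. Over all measured genes that lay above both controls, the median level in 2-cell controls was 7.29 FPKM, against 2.42 FPKM for those that lay below and 3.25 FPKM for those with overlapping groups; in MII oocytes these medians were 4.31, 3.23 and 2.59 FPKM.

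The genes called were set beside their levels at earlier stages. The 277 genes called lower had a median of 0.388 FPKM in oocytes, 0.0797 FPKM in 2-cell controls and 16.1 FPKM in 4-cell controls, and 0.20 FPKM in 4-cell Ago2 kd embryos. In 113 of them both knockdown libraries were at or below 0.1 FPKM, and in 46 so were all 6 other libraries; of the 128 called higher, 57 were at or below 0.1 FPKM in both controls, 18 of them in the 6 other libraries too. Over all genes tested, 47 were above 0.1 FPKM in both 4-cell controls and in no other library, and 20 in both 4-cell knockdown libraries and in no other, so nearly every gene of this kind was called. A gene at 0 in all other libraries has no spread within those groups, which enters its test. Fancm, a helicase of the Fanconi anaemia pathway, was listed at 0 in the controls and all other libraries and at 35.04 and 44.3 FPKM in the 4-cell knockdown libraries (adjusted p = 0.000193).

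The effect of the knockdown differed between stages for 185 genes by the interaction term of limma, 53 (0.892%) with the more positive and 132 (2.22%) with the more negative difference at the 4-cell stage. Nsun2 differed by -0.59 at the 2-cell stage, where all libraries were at or below 1.80 FPKM, and its interaction was -5.27 (SE 0.81, adjusted p = 0.0170). Tcstv3 differed by -1.10 at the 2-cell stage, from 273 and 306 FPKM to 134 and 134 FPKM, and its interaction was 4.23 (SE 0.54, adjusted p = 0.00771). Nrf1, the nuclear respiratory factor and a transcription factor of mitochondrial and cell-cycle genes (chromosome 6, 30047988 to 30153458), turned around between the stages. In 2-cell embryos it was at 1.43 and 0.52 FPKM in controls and 30.1 and 36.4 FPKM after the knockdown (4.15, adjusted p = 0.0252), and in 4-cell embryos at 69.3 and 105.8 FPKM against 3.69 and 3.10 FPKM (-4.30, SE 0.45, adjusted p = 0.00185). Its interaction was -8.46 (SE 0.64, adjusted p = 0.0019). Sall4 was at 235 and 273 FPKM in MII oocytes and at 0.34 and 0.20 FPKM in 2-cell controls, against 30.7 and 3.85 FPKM in 2-cell knockdown embryos, so that its 4-cell control level came after a 2-cell low. Nrf1 was chosen after its values were seen, and its fall was called under weights.

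X-linked genes lay above the controls more often than those of any autosome. Of 223 tested X-linked genes, 90 (40.4%) lay above both controls and 28 (12.6%) below, against 18.1% to 33.5% above for the 19 autosomes, and the median difference was 0.50 against -0.14 to 0.30. Restricted to protein-coding genes, 60 of 142 X-linked genes (42.3%) lay above and 14 (9.86%) below, with a median of 0.68 (0.58 and 1.03 in the knockdown libraries), whereas 20.2% of 4287 autosomal ones lay above and 23.7% below, with a median of -0.09. Centred on length and GC content these medians were 0.58 and 0.04, whereas that of all 223 X-linked genes went from 0.50 to 0.24. Mospd1 rose from 9.45 and 7.00 FPKM to 23.3 and 28.02 FPKM (1.54, SE 0.32, adjusted p = 0.0341), and Hprt, the purine salvage enzyme, was at 335 and 262 FPKM against 457 and 934 FPKM (1.14, SE 0.40, adjusted p = 0.160). Xist, the noncoding RNA that coats the X chromosome to be silenced (chromosome X, 103460366 to 103483254), was listed at 0 in both controls and in the 6 other libraries, and at 2.66 and 2.38 FPKM in the 4-cell knockdown libraries (adjusted p = 0.00136). Xist thus passed the filter through the knockdown libraries alone and had to come out higher. Atp6ap1, among the largest falls, lies on the X chromosome too. Mospd1 and Hprt were chosen after their values were seen. The number of embryos in each library and their sexes are not given in the sources used here, and their part in these values was not tested.

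Promoters of the genes above and below the controls were compared for motifs, which are a description and no evidence of binding. RefSeq promoter sequences (GRCm38.p6, 250 bases before the annotated start) matched 3630 of the 5943 tested genes. The GC box, GGGCGGG on either strand, to which Sp and Krüppel-like factors bind, occurred in 25.7% of all 27025 promoters and in 46.9% of those of measured genes. It was present for 297 of the 570 measured genes below both controls that had a promoter (52.1%) and for 254 of the 594 above (42.8%), with a median promoter GC content of 61.6% and 58.8%. CCAAT was present in 39.3% of the first and 42.1% of the second, against 40.8% of the measured genes. All 7 promoters read for genes named above are shown here, without standing for the lists, so that the count of boxes can be set beside each gene, each given 5′ to 3′ on its gene's strand with the GC box in capitals (CCCGCCC where it lies on the other strand). Of the genes lower after the knockdown, Klf2 is at chr8:72318812-72319061 (+ strand), Pou5f1, which was not called, at chr17:35505782-35506031 (+ strand), Nsun2 at chr13:69611766-69612015 (+ strand) and Hnrnpab at chr11:51606882-51607131 (- strand). Of those higher, Spc25 at chr2:69206214-69206463 (- strand), Cdca3 at chr6:124829926-124830175 (+ strand) and Med21, which was not called, at chr6:146642329-146642578 (+ strand). The RefSeq starts of Cdca3 and Nsun2 lie inside the GENCODE gene spans given above, so their windows do too. The windows of Klf2 and Pou5f1 end past the starts of their spans, so they lie inside them in part.
Klf2: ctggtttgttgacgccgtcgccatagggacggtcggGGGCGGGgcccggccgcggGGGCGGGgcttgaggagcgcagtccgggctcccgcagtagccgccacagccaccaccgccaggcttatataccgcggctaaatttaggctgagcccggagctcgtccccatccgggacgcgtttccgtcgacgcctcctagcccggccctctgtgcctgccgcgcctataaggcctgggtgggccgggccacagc
Pou5f1: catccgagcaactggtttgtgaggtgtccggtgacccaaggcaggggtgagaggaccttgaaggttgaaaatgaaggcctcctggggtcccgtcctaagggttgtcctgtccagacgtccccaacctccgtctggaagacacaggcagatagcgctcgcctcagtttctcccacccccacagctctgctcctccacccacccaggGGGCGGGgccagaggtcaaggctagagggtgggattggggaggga
Nsun2: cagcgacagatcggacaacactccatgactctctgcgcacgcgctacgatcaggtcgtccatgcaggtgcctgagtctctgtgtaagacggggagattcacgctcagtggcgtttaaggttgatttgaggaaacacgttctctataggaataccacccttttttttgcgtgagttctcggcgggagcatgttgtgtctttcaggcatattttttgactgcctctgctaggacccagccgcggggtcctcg
Hnrnpab: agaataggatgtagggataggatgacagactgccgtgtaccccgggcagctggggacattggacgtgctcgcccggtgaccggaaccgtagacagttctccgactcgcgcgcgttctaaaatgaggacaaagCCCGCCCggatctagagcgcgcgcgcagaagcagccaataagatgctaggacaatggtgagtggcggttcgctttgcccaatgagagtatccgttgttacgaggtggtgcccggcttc
Spc25: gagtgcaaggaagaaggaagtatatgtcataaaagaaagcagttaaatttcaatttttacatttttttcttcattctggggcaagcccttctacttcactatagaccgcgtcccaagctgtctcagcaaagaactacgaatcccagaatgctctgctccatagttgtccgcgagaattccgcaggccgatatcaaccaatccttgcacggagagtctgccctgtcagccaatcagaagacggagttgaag
Cdca3: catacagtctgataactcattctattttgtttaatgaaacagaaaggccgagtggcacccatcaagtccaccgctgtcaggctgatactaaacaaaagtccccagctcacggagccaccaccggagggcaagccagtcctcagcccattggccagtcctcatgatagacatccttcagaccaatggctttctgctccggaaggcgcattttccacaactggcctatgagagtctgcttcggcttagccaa
Med21: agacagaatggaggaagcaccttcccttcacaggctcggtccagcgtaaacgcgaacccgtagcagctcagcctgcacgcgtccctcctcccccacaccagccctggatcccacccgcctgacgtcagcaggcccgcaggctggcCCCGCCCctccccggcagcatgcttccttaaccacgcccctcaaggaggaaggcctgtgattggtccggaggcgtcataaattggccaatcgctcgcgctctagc
The Klf2 promoter holds 2 GC boxes in this window, those of Pou5f1, Hnrnpab and Med21 hold 1 each and those of Nsun2, Spc25 and Cdca3 hold 0, so both directions include genes with and without a box.

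Differences also followed gene length, which touches every list. Over 5 equal bins of exonic length, from 57 to 1101 bases up to 5845 to 123179 bases, the median log2 difference went from 0.48 through 0.12, -0.13 and -0.29 to -0.24, and the share of genes above both controls from 39.9% to 17%. The trend ran the same way in both knockdown libraries, from 0.24 to -0.44 in the first and from 0.76 to 0.07 in the second. Over 5 equal bins of GC content, the median went from 0.20 in the poorest to -0.22 in the richest. Long genes rich in GC were lowest, with a median of -0.72 in the bin of 3702 to 5842 bases and the richest GC. Measured genes above both controls had a median exonic length of 1785 bases, and those below of 3520 bases. The part of length in the list results was not tested. Centring on length and GC content took the median from -0.79 to -0.48 for pluripotency factors and from -0.69 to -0.44 for ribosome biogenesis. It went from 0.49 to 0.62 for Mediator, from 0.59 to 0.55 for spindle genes and from 0.64 to 0.59 for mitochondrial ribosomal proteins. For respiratory chain subunits it went from 0.69 to 0.41, and for mitochondrially encoded genes from 0.71 to 0.34. For translation initiation factors it went from -0.61 to -0.18, and for oocyte and egg-specific genes from 0.26 to -0.0.

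**Figure D5:**
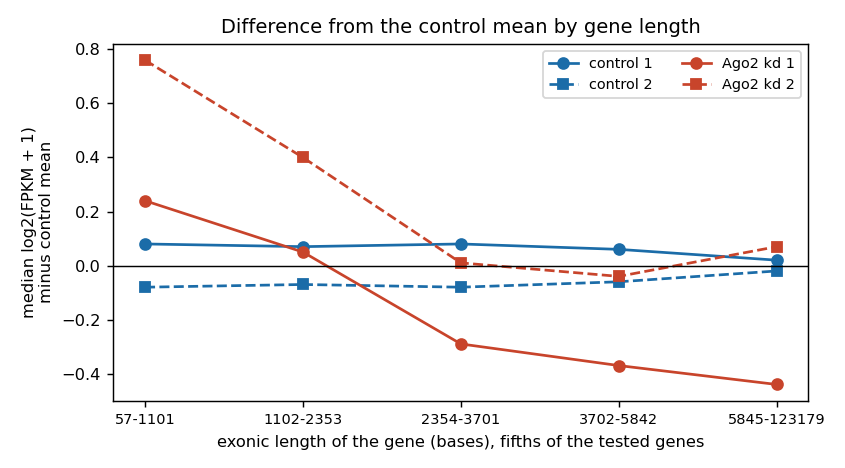
Median over genes of log2(FPKM + 1) minus the control mean, by 5 equal bins of exonic length in bases, 1 line per library; solid lines with circles are replicate 1, dashed lines with squares replicate 2, blue control and red Ago2 kd. The red lines fall from 0.24 to -0.44 and from 0.76 to 0.07 from the shortest to the longest genes, while the blue lines stay within 0.08 of 0.

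Ribosomal RNA and library quality also moved with the groups. Rn18s-rs5, an 18S ribosomal RNA row, was at 4.70 and 14.7 FPKM in the controls and 423 and 2018 FPKM after the knockdown (log2 difference 6.61, adjusted p = 0.00318), and AY036118, in a ribosomal RNA locus, at 34.1 and 189 FPKM against 3567 and 7517 FPKM (5.99, adjusted p = 0.00436). Gm26917 and Gm42418 of the same locus, chosen after their values were seen, were the other way around, at 1163 and 3576 FPKM against 737 and 411 FPKM and at 48.2 and 321 FPKM against 13.4 and 16.1 FPKM (adjusted p = 0.123 and 0.0815). These rows took 0.465% and 1.70% of the FPKM in controls and 2.05% and 3.05% in knockdown libraries. Of the tested genes, 6.26% and 7.74% were at or below 0.1 FPKM in the controls, and 13.8% and 6.36% in the knockdown libraries, so the first knockdown library held most gaps. The SD between replicates was 1.05 log2 units for controls and 1.36 for Ago2 kd embryos, against 0.68 in oocytes and 0.86 in each 2-cell group, and 42.6% of genes differed over 2-fold between the knockdown libraries. Of 12 cumulus and granulosa markers, 4 were in the table, with a summed level of at most 1.75 FPKM in any of the 4 libraries. The 4 blood markers summed to 0.606 and 0.596 FPKM in controls and to 1.78 and 7.04 FPKM in knockdown libraries, with Hba-a1 the 1 marker tested. The part of these in the gene results was not tested.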

How the data were processed

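Early mouse embryos were sequenced as bulk RNA, with 2 libraries per group. Per the methods and labels, the authors trimmed reads with Trim Galore, aligned them with HISAT2 (2.1.0) to mm10 and deposited FPKM values per gene from StringTie, rounded to 2 decimals. These FPKM keep no whole-read steps, so depth is unknown and no counting interval is given. The authors' own tests, on read counts, were not used here.

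From these values, log2(FPKM + 1) was fitted with limma (3.58.1, R 4.3.3) over all 10 libraries with 5 group means and a trended variance (5 residual degrees of freedom, median prior 2.13), for genes with at least 1 FPKM in 2 or more of the 4 libraries of the stage, and p-values were two-sided and adjusted over all 5943 genes. The scale understates changes of low genes, and an exact permutation test of 2 libraries against 2 cannot go below p = 0.333. The procedure was tested on simulated data with the same spread for every gene and group. The real groups differ in spread, so that test cannot show how often unchanged genes are called here. Coordinates, exonic length and GC content came from GENCODE M21 (GRCm38), in which 20460 of 21437 symbols matched. The comparison and the 61 gene lists were chosen with earlier results of these data known. Genes named were, per list, up to 6 measured ones with adjusted p below 0.05 and no overlap, then up to 3 at or below 0.1 FPKM in a library. Over all genes the 12 largest rises and falls among measured ones were eligible, as were the genes the study names and, for lists with fewer than 2 called, members with unadjusted p below 0.05. 1 of the eligible rises is not reported here. Other genes are said to be chosen after their values were seen. Alternatives were another pseudocount, other filters, 4 scalings, the 4 libraries alone, array weights, a replicate block, a minimum fold, leaving out each library and, added after seeing the data, centring on length and GC content.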

Additional observations from a re-analysis of the deposited data

Results flagged for a closer look

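For 34 genes named in the report, the difference between Ago2 kd and control embryos itself differed between the 4-cell and the 2-cell stage by the interaction term of limma (adjusted p below 0.05). Omt2b was not among the genes examined for this. Over all genes tested, 0.892% had the more positive and 2.22% the more negative difference at the 4-cell stage. The 34 were named largely for their 4-cell difference in these same libraries, so their interaction is not a separate test of stage dependence. Values below are the 4-cell difference minus the 2-cell difference on the log2(FPKM + 1) scale. For Nrf1 (-8.46) and Sall4 (-9.93) the Ago2 kd embryos were above the controls at the 2-cell stage and below them at the 4-cell stage. Trim28 (-5.54) showed the same pattern, with differences of 2.25 and -3.29.

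Among lineage and chromatin genes the values were -6.24 for Klf2, -4.75 for Tead4, -5.19 for Amotl2, -3.27 for Lats2, -3.96 for Fgf4, -5.34 for Hdac2, -4.28 for Chaf1b and -3.62 for H2afx. For RNA-binding proteins and translation they were -3.45 for Hnrnpab, -4.78 for Sf1, -5.27 for Nsun2, -2.54 for Ddx51, -4.50 for Pes1, -6.82 for Nol9, -5.79 for Eif2b5 and -5.43 for Dis3. Other falls gave -5.46 for Slc16a6, -5.80 for Atp6ap1, -6.48 for Dtl, -4.96 for Psmd2, -4.94 for Tomm22, -6.23 for Rnpep and -4.91 for Cdc27. Positive values were 2.96 for Cdca3, 3.63 for Ddt, 4.23 for Tcstv3, 5.34 for Fancm, 5.51 for Mrpl27, 1.81 for Xist, 7.41 for Rn18s-rs5 and 6.71 for AY036118. Klf2, Tead4, Lats2, Fgf4, Nol9, Dis3, Hnrnpab, Tomm22, Fancm, Mrpl27 and Xist had a 2-cell difference of 0.00, so their value is that of the 4-cell stage. Klf2, Sall4, Tead4, Amotl2, Lats2, Fgf4, Pes1, Nol9, Eif2b5, Dis3, Fancm, Mrpl27 and Xist were at or below 0.1 FPKM, or listed at 0, in at least 1 library of a 4-cell group, and for these the value is no measure of size.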

How the results depend on the processing

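The count of genes called at the adjusted threshold (128 higher, 277 lower) moved most with the filter and with which libraries entered the fit. Requiring 1 FPKM in all 4 libraries left 10 higher and 37 lower (300 and 275 unadjusted), and above 0.1 FPKM in all 4 left 30 and 101 (413 lower unadjusted). With no filter 960 genes were higher unadjusted. The 4 libraries alone gave 0 and 0 (334 and 432 unadjusted), array quality weights 35 and 110 (253 and 438), and a test against a 2-fold change 26 and 116 (141 and 354). The replicate block gave 88 higher and 213 lower; replicates of the same number deviated with r = -0.099, so they share only a number. Leaving out 1 library gave 135 to 229 higher and 242 to 594 lower (451 to 843 and 622 to 1089 unadjusted), with 229 higher without Ago2 kd replicate 1 and 594 lower without Ago2 kd replicate 2. The interaction count of 185 fell to 129 with the 8 embryo libraries. Scaling moved the median of all genes to -0.12 with equal medians and 0.16 with quantile normalization. Nanog, which was not called, differed by 1.37 without Ago2 kd replicate 1 and by -1.22 without replicate 2. Of 58 called genes named (Omt2b not counted), 0 changed sign under an alternative that gave them a value, which 23 had at 1 FPKM in all 4 libraries, 38 at above 0.1 FPKM and 56 without mitochondrial and rRNA rows. Of the 58, 25 passed with array weights, 0 with the 4 libraries alone and 41 to 49 without 1 library. Of 18 lists with a median of 0.4 or more in size, all 18 kept its sign after centring on length and GC content, and 17 did without control replicate 1 or either Ago2 kd library. Depth is unknown, and with 2 libraries a group the spread rests on the other groups too.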
